A study of Mus musculus with 6 samples.

Results

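Cytosolic ribosomal proteins were followed on 6 oligonucleotide arrays of mouse liver, 3 from mice with a ligated bile duct (BDL) and 3 from sham-operated mice, all on day 1 after surgery. Members were chosen by name: every probe set with exactly 1 gene symbol that starts with Rpl, Rps or Rplp and a digit, without the S6 kinases. This gave 48 of the 12422 probe sets other than controls, for 34 genes, with 22 probe sets for 17 genes of the large subunit (Rpl and Rplp names) and 26 for 17 genes of the small subunit (Rps names). A further 39 probe sets carried a ribosomal protein symbol together with other symbols and were no members. The mice were wild-type C57BL/6J males of 8 to 10 weeks. In BDL the common bile duct was tied and cut under methoxyflurane anesthesia, which blocks the outflow of bile, and the sham controls had the abdomen opened without ligation. Each array held RNA of 1 mouse; the titles give the numbers 1, 12 and 3 in the BDL group and 1, 2 and 3 in the sham group, and this is the order of all values below.

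The cytosolic ribosome makes most proteins of the cell. Its small subunit holds the decoding site that reads the messenger RNA, and its large subunit holds the centre that joins amino acids; each is built in the nucleolus from ribosomal RNA and many small basic proteins. Mammalian ribosomal protein messages are abundant in every tissue. They share a pyrimidine tract at the 5′ end, through which TOR signalling adjusts their translation together, and liver raises ribosome production when hepatocytes grow.

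Whole-array values are needed to read the members. The 2% trimmed mean of the signals, which are linear intensities, lay within a ratio of 1.0003 over the 6 arrays, and no 2 arrays were identical. Sham replicate 1 stood apart, with a 10th percentile of 135 where the other arrays had 33.7 to 62.3, and a 98th percentile of 17113 where they had 20107 to 23293. Its low signals were higher and its high signals lower than elsewhere. Hepatocyte markers had all 17 genes on the array above the filter, and their summed signal spanned 927404 to 1308768 over the BDL mice and 752625 to 1222391 over the sham mice. In whole liver, fewer cells of a type and less RNA per cell cannot be told apart. The number of arrays limits the precision, and since probe sets differ in how strongly they bind, the signal of one is not set against that of another.

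No ribosomal protein probe set passed the test after adjustment. Signals were raised to at least 152.7, the floor, which is their 25th percentile, log2 was taken, and BDL minus sham was fitted with limma over the 9542 probe sets above the floor on at least 3 arrays. Of the 48 members 41 were tested, and 0 had an adjusted p under 0.05, as had 0% of all tested probe sets. At an unadjusted p under 0.05 there was 1 member, lower in BDL, which is 2.44% of the 41 against 5.78% of all tested probe sets. The differences were small. Of the 41 tested members, 26 were positive and 15 negative, with a median log2 difference of 0.12 and a range from -1.36 to 0.54, while 48.8% of all tested probe sets were positive and their median was -0.01. Signals of the BDL mice lay entirely above those of the sham mice for 6 members (14.6%, against 6.32% of all tested probe sets) and entirely below for 1 (2.44% against 4.32%).

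The sign of the difference followed the signal of the probe set. The members fell into 20 with a mean log2 signal over 12, a signal of 4096, and 28 at or below it, a division made after the values were seen. All 20 of the first kind, called strong below, had a positive difference, from 0.04 to 0.54 with a median of 0.21, 1.16-fold. Over all 1274 tested probe sets in that range 54.2% were positive and the median was 0.03. Of the 28 others 21 were tested, of which 6 were positive and 15 negative, with a median of -0.18, against 48% positive and a median of -0.02 over all tested probe sets in that range. At an unadjusted p under 0.05 limma gave 0 strong members, where 3.06% of all tested probe sets in that range passed, 2.12% higher and 0.942% lower. It gave 1 weaker member, lower in BDL, where 6.2% passed, 3.59% higher and 2.61% lower. The groups were apart with BDL higher for 5 of the 20 strong members (25%, against 6.83%) and for 1 of the 21 weaker ones (4.76%, against 6.24%). The 20 values are no independent observations, since they share the same 6 arrays.

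**Figure D1:**
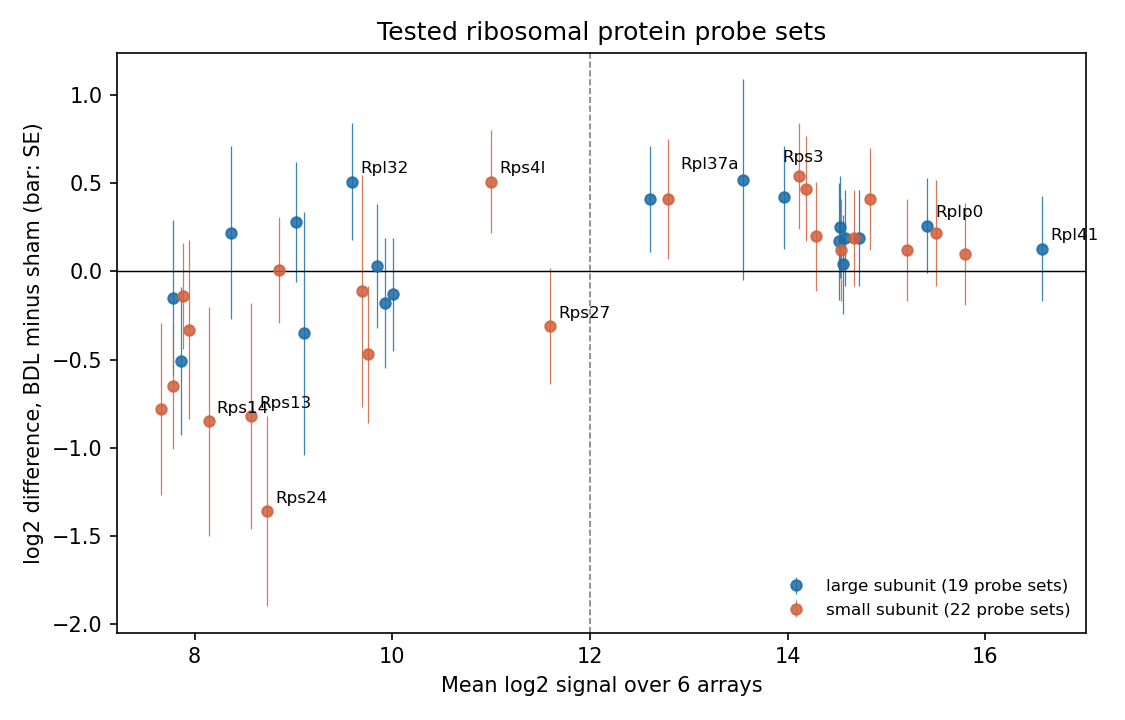
Each point is 1 tested ribosomal protein probe set, with the mean log2 signal over 6 arrays on the x axis and the log2 difference of BDL minus sham on the y axis; bars are limma's standard errors and colour gives the subunit. All 20 points to the right of the dashed line at 12 lie above 0, between 0.04 and 0.54, whereas those to the left spread from -1.36 to 0.51.

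The 20 strong probe sets carry the symbols of 18 genes, 9 of each subunit, and moved together from array to array. The median log2 deviation of these probe sets from their mean over the 6 arrays was 0.04, 0.27 and 0.02 for the BDL mice and -0.44, -0.04 and 0.02 for the sham mice. Sham replicate 1 is the low array and BDL replicate 12 the high one, and the other 4 arrays overlap between the groups. Sham replicate 1 had the lowest signal for 19 of the 20 and BDL replicate 12 the highest for 12. Among all tested probe sets in that signal range these 2 arrays held the lowest and the highest value for 41.1% and 25.1%. The all-probe-set medians in the same range were -0.21 for sham replicate 1 and 0.08 for BDL replicate 12, and their part in the difference of the members was not tested. Less the median of all tested probe sets over 12, the members stood at 0.03, 0.19 and 0.00 in the BDL mice and at -0.23, -0.08 and -0.09 in the sham mice. On that relative scale the groups did not overlap for the strong members, by a mean of 0.07 ± 0.10 in BDL against -0.13 ± 0.09 in sham (SD, n = 3). They overlapped over all tested members less all tested probe sets, at -0.07, 0.23 and -0.01 in BDL and -0.27, -0.05 and 0.09 in sham. Among the weaker members, less the weaker probe sets, they overlapped at -0.23, 0.02 and -0.17 in BDL and 0.54, 0.06 and -0.14 in sham.

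Without sham replicate 1 the median difference of the strong members was 0.10 with 15 of 20 positive, against a median of -0.05 over all tested probe sets in that range. It was 0.35 without sham replicate 3, and 0.17 to 0.25 without any of the other 4. After quantile normalization, which gives the 6 arrays the same distribution, the median was 0.10 with 16 of 20 positive, and the median deviations were 0.06, 0.10 and 0.00 in BDL and -0.10, -0.06 and -0.06 in sham. After scaling to equal medians it was 0.23 with 20 of 20 positive, but the groups then overlapped for all 5 strong members that were apart on the deposited scale.

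**Figure D2:**
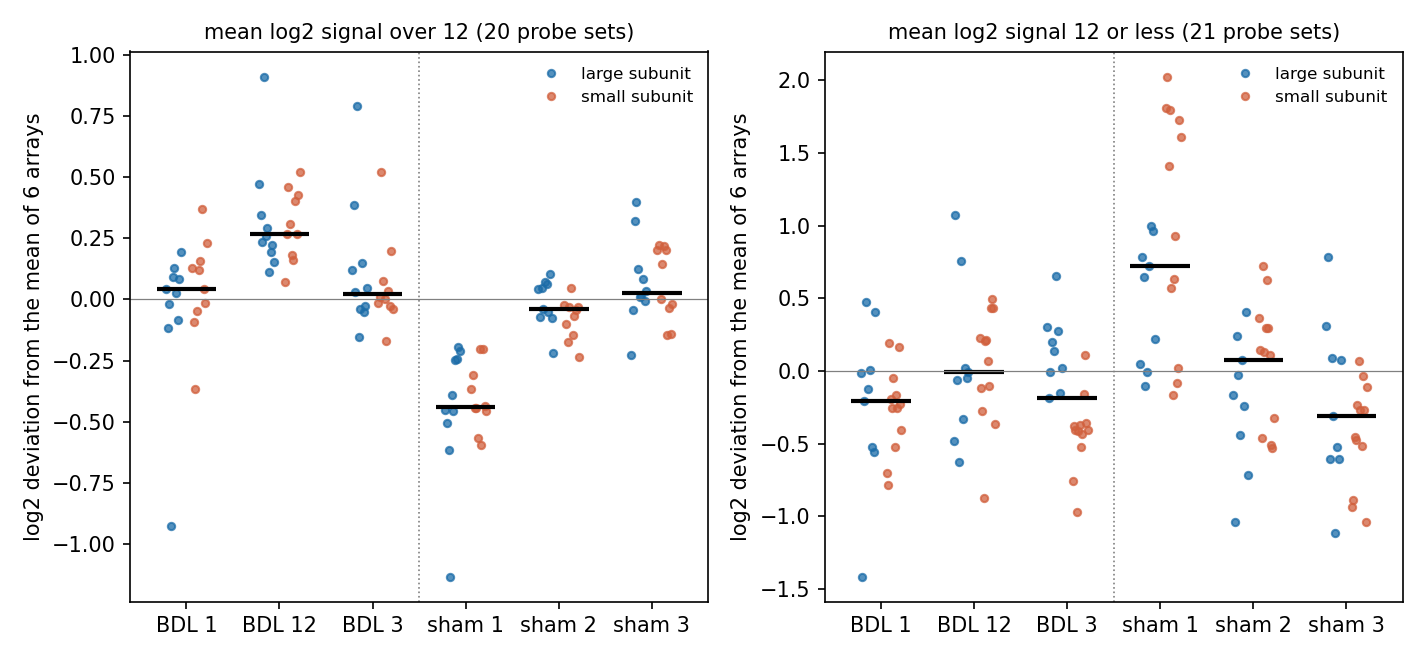
Points are tested members, plotted by array as the log2 deviation from the member's mean over the 6 arrays, with black bars for the median. On the left, the 20 members with a mean log2 signal over 12 lie lowest in sham 1 (median -0.44) and highest in BDL 12 (0.27); on the right, the 21 others lie highest in sham 1 (0.72).

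The large subunit was measured by 10 of the strong probe sets. Rplp0, the base of the ribosomal stalk that recruits elongation factors, had signals of 49722, 48261 and 44917 in the 3 BDL mice and of 37528, 37308 and 44544 in the 3 sham mice. All BDL values lay above all sham values, the nearest pair being BDL replicate 3 and sham replicate 3. Its log2 difference was 0.26 (SE 0.27, limma adjusted p = 0.881). Rpl7 on one of its probe sets had 27459, 29080 and 29888 in BDL and 22707, 25987 and 27167 in sham, also without overlap, and differed by 0.19 (SE 0.27, limma adjusted p = 0.914). The gene name of this probe set is uncertain, as explained below with Rps24.

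Rpl10a, a protein of the L1 stalk near the exit site for transfer RNA, was measured by 2 strong probe sets. The first gave 16373, 22030 and 17301 in BDL and 11616, 16378 and 13598 in sham. The second gave 5782, 7975 and 8194 in BDL and 4424, 5972 and 6093 in sham. Both overlapped between the groups only through BDL replicate 1, and their differences were close, at 0.42 (SE 0.29) and 0.41 (SE 0.30). Rpl37a, a zinc-binding protein of the large subunit, had the widest spread of the strong members, with 6321, 22561 and 20754 in BDL and 5467, 11675 and 15809 in sham. Replicate 1 was lowest in both groups, and its difference of 0.52 came with an SE of 0.57. It was 1.11 without BDL replicate 1 and 0.08 without sham replicate 1.

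The other strong large subunit members were Rpl41, Rpl6, Rpl8, Rpl19 and Rpl7a, all with overlapping groups. Rpl41, a very short and basic peptide, had signals of 103452, 116287 and 87311 in BDL and 74186, 102208 and 106017 in sham, and differed by 0.13 (SE 0.30). Its sign turned under quantile normalization (-0.04), with array weights (-0.02) and without sham replicate 1 (-0.03). Rpl6 differed by 0.25, Rpl8 by 0.19, Rpl19 by 0.17 and Rpl7a by 0.04 on the log2 scale. For each of these 5 genes sham replicate 1 had the lowest signal of the 6 arrays.

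The small subunit was measured by the other 10 strong probe sets. Rps3, which lies at the entry of the messenger RNA channel and also acts in DNA repair, had 23014, 23577 and 18291 in BDL and 11819, 17019 and 16150 in sham. No sham mouse reached the lowest BDL mouse. Its log2 difference of 0.54 (SE 0.30), 1.45-fold, was the most positive of the tested members, with a limma unadjusted p of 0.104 and an adjusted p of 0.832. Over the alternatives tried it ranged from 0.37 to 0.65.

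Rps4x, an X-linked protein of the small subunit, had 28817, 39044 and 33375 in BDL and 21502, 28433 and 26366 in sham on its strong probe set. The groups were apart by a narrow margin, between BDL replicate 1 and sham replicate 2. The difference was 0.41 (SE 0.29, limma adjusted p = 0.839). Rps3a1 had 26831, 31355 and 25560 in BDL and 22602, 25292 and 25392 in sham, again apart with a margin smaller than the spread within either group. It differed by 0.19 (SE 0.27).

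Rps7 takes part in small subunit assembly and binds Mdm2, the inhibitor of p53. Its signals were 21956, 26886 and 18236 in BDL and 13655, 15897 and 18503 in sham, so that sham replicate 3 reached into the BDL range. The difference was 0.47 (SE 0.30, limma adjusted p = 0.832). Rps19, the protein most often mutated in Diamond-Blackfan anemia, had 5512, 9757 and 10194 in BDL and 5228, 6301 and 7111 in sham, with BDL replicate 1 among the sham values and a difference of 0.41 (SE 0.34). The remaining strong members Rps10, Rps18, Rps24 and Rps28 had overlapping groups. Rps28 differed by 0.20 and 0.10 on 2 strong probe sets, the second of which turned to -0.10 under quantile normalization and to -0.01 in the fit with the replicate number as a block. Rps24 differed by 0.22 on its strong probe set. That probe set and the one for Rpl7 described above list the same source sequence under different symbols in the platform annotation, so the gene names of both are uncertain.

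**Figure D3:**
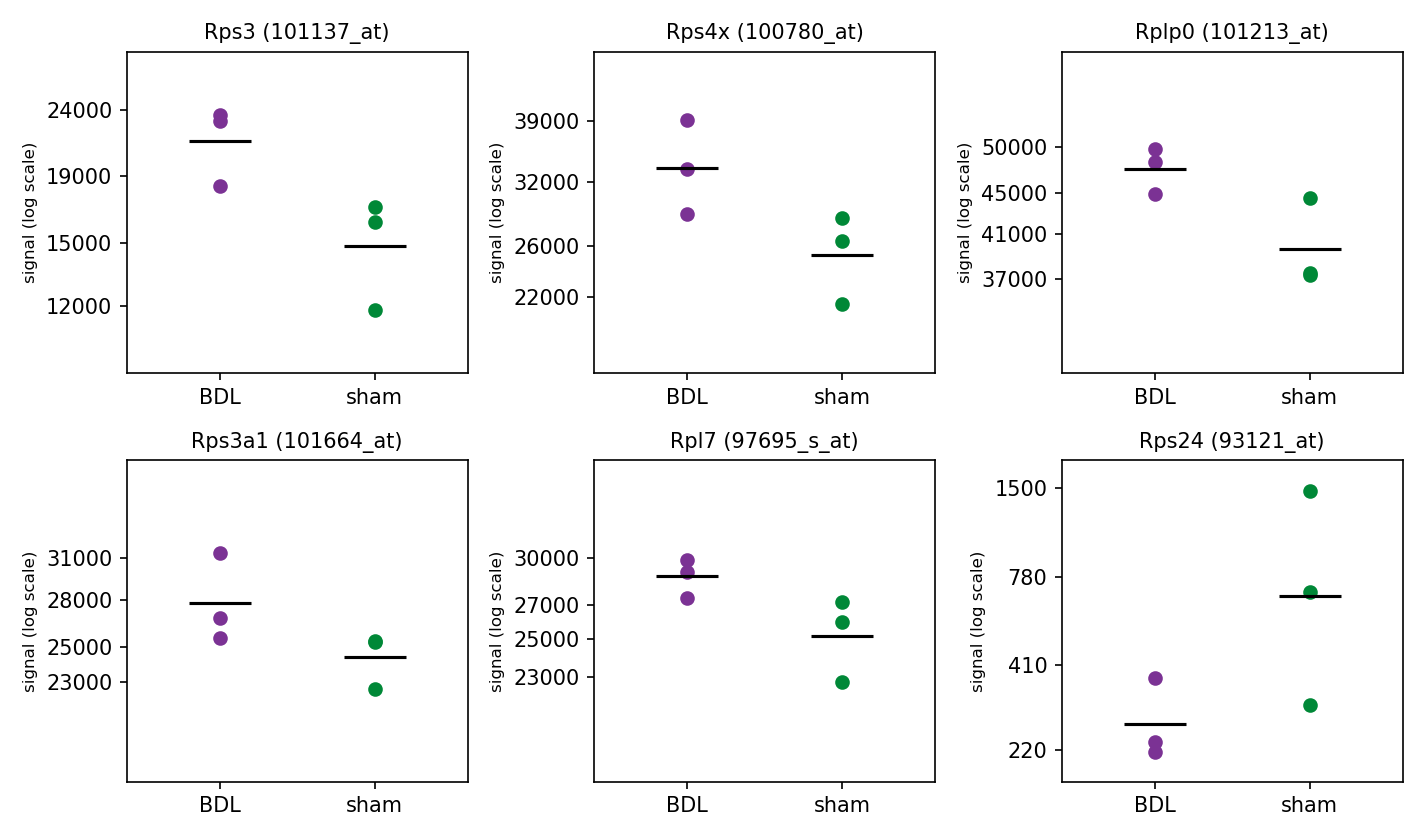
Signals of 6 member probe sets on a log axis, with 1 point per mouse and a bar at the geometric mean of each group. In the panels for Rps3, Rps4x, Rplp0, Rps3a1 and Rpl7 all 3 BDL points lie above all 3 sham points; in that for the weaker Rps24 probe set 2 of the sham points lie above the BDL points and the third among them.

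Upstream sequence of 5 strong members is shown to illustrate short motifs found in the start regions of ribosomal protein genes. RefSeq promoter entries of GRCm38.p6, 250 bases before to 50 after a gene's start, were matched by symbol for 27 of the 34 genes. These 27 had 36 entries, with over 1 entry for 7 of them. A gene, here and among all genes, counted as having a motif when any of its entries held it. The motif searched first was CTTCCG on both strands, the core that ETS-family factors such as GABP recognise. It was present in 18 of the 27 genes (66.7%), in 8 of 14 of the large and 10 of 13 of the small subunit, against 18.8% of all 27025 genes with an entry and 23.5% of the 17492 that code for proteins. The lines below give 120 bases before and 20 after the start, 5′ to 3′ on the gene's strand, with CTTCCG or its reverse complement CGGAAG in capitals. In Rps3 the motif lies only in the rest of its entry, outside the bases shown.
Rps3, chr7:99483690-99483829, minus strand: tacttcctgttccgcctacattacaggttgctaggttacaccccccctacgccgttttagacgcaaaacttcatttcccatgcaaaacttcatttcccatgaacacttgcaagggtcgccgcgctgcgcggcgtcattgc
Rps7, chr12:28635934-28636073, minus strand: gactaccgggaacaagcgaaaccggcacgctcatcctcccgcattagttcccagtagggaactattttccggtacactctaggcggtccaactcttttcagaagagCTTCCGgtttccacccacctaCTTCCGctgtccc
Rps18, chr17:33955646-33955785, minus strand: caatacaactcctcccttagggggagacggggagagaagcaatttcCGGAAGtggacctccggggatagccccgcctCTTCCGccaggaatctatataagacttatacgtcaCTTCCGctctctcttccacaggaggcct
Rps3a1, chr3:86142649-86142788, minus strand: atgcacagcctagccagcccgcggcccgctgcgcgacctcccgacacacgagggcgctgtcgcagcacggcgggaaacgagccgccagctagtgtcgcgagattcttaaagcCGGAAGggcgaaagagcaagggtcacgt
Rpl37a, chr1:72711140-72711279, plus strand: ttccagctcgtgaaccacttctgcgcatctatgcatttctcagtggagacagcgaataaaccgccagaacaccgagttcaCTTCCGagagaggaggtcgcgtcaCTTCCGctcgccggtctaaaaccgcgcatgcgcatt

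Rps18 held 3 matches in the bases shown, Rps7 and Rpl37a 2 each, and Rps3a1 1. A run of C followed by at least 6 pyrimidines, searched on the gene's strand from 10 bases before the start to the end of the entry, was present in 19 of the 27 genes (70.4%) against 28.2% of all genes. The letters AAGATGGC, the core of YY1 sites on both strands, were present in 5 of 27 (18.5%) against 3.19%. The letters TATAAA, from 100 bases before the start to the end of the entry, were present in 3 of 27 (11.1%) against 5.42%. RefSeq starts can differ from the starts used in liver, and a match describes the letters only.

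The weaker probe sets, with a mean log2 signal of 12 or less, behaved otherwise. Their median deviation was 0.72 in sham replicate 1, against -0.31 to 0.07 on the other arrays. That array held the highest signal for 19 of all 28, which include members under the filter. It was highest for 36.5% of all tested probe sets in that range, a share without probe sets under the filter. The only member with an unadjusted p under 0.05 was one of these weaker members, the weaker probe set of Rps24. It had 371, 232 and 217 in BDL and 1474, 699 and 306 in sham. Sham replicate 1 was far above the rest and sham replicate 3 lay among the BDL values. Its log2 difference was -1.36 (SE 0.54, limma unadjusted p = 0.0347, adjusted p = 0.832), and -0.80 without sham replicate 1. Rps14, a protein of the small subunit platform, had 164, 261 and 218 in BDL and 1151, 312 and 115 in sham, a difference of -0.85 (SE 0.65) that was -0.05 without sham replicate 1. Rps13 followed the same pattern, with -0.82 (SE 0.64) on all arrays and -0.13 without that array. Without it the median of the 21 tested weaker members was -0.05.

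Other weaker members did not have their highest signal on that array. Rps4l, a paralog of Rps4x, is annotated as a transcribed pseudogene and is a member by its name. One of its probe sets, whose suffix marks shared probes, had 2288, 2876 and 2203 in BDL and 2072, 1436 and 1694 in sham. On it the groups were apart with a difference of 0.51 (SE 0.29, limma adjusted p = 0.832), while the other probe set differed by 0.01. Rpl32 had 706, 1298 and 844 in BDL and 764, 566 and 619 in sham, which overlapped only through BDL replicate 1, and differed by 0.51 (SE 0.33). Rpl7l1, a relative of Rpl7, differed by 0.28 (SE 0.34) with overlapping groups.

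Rps29 was negative on both of its probe sets, at -0.65 (SE 0.36) and -0.47 (SE 0.39), and Rpl39, which lines the exit tunnel of the nascent chain, stood at -0.51 (SE 0.42). All had overlapping groups and their highest signal on sham replicate 1. The first Rps29 probe set was at the floor on 2 arrays, BDL replicates 1 and 3. With 1 array left out Rpl39 ranged from -0.94 to -0.16. Rpl13a, which can leave the ribosome to silence inflammatory messages, had 1024, 740 and 1273 in BDL and 1068, 923 and 1282 in sham, a difference of -0.13 (SE 0.32) whose sign turned with array weights (0.09) and without BDL replicate 12 (0.08). Rpl38, linked to the translation of Hox messages, differed by -0.15 (SE 0.44) on its tested probe set, and the sign turned without sham replicate 1 (0.31), without BDL replicate 1 (0.07) and with array weights (0.09). The 7 members under the filter were probe sets of Rpl38, Rpl39l, Rpl7, Rps15, Rps27l and Rps4x, the last with 2, and were at the floor on 4 or 5 of the 6 arrays. Rps27l, a paralog of Rps27 and a p53 target, had 69.2, 24.9 and 22.8 in BDL and 618, 189 and 54.7 in sham. Rpl39l, a paralog of Rpl39 known from testis, had 79, 105 and 193 in BDL and 354, 67.7 and 72.9 in sham.

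Of the 10 genes with several probe sets, 6 had probe sets of opposite sign: Rpl7, Rpl19, Rpl22, Rps4x, Rps24 and Rps28. This count includes probe sets under the filter. The negative one of Rpl7 was not tested and was at the floor on 5 of the 6 arrays. The positive probe sets of Rpl7 and Rps24 are those with an uncertain gene name. Rps4x had 5, of which the strong one stood at 0.41 and the weakest tested one at -0.78 (SE 0.49), the only tested member whose BDL signals were each lower than every sham signal; without sham replicate 1 it stood at -0.17. That probe set had 65.8, 157 and 59.5 in BDL and 615, 162 and 187 in sham, so that 2 of the BDL values were under the floor. Among the members 15 had a suffix by which the array's design marks probes that are shared, incomplete or relaxed in their selection, 5 of them strong. With several copies and many pseudogenes in this family, signals can include RNA of near-identical sequences.

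No separation of large and small subunit was seen among the strong probe sets. Over all tested members the median log2 difference was 0.19 for the 19 large subunit probe sets, 14 of them positive, and 0.05 for the 22 of the small subunit, 12 of them positive. Among the strong probe sets the medians were 0.22 and 0.21, with 10 of 10 positive in each. The strong probe sets named Rpl7 and Rps24, which list the same source sequence, were counted in different subunits. On each array the median deviation of the strong large subunit members less that of the small subunit members was -0.05, -0.04 and 0.03 for the BDL mice and 0.02, 0.06 and -0.05 for the sham mice. The groups overlap and their means were -0.02 ± 0.04 and 0.01 ± 0.05 (SD, n = 3). The subunits thus stayed within 0.06 of each other on every array, while the median of both together spanned -0.44 to 0.27. Over all tested members the same quantity was 0.06, -0.02 and 0.21 in BDL and -0.07, -0.01 and 0.14 in sham, with means of 0.08 ± 0.12 and 0.02 ± 0.11, and among the weaker ones 0.12, -0.18 and 0.54 against -0.52, -0.30 and 0.05. The wider gaps among the weaker probe sets came with group SDs of 0.36 and 0.29. No p is given for these array medians.

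The probe sets with several symbols, which are named by no gene, were mostly positive in both signal ranges. Of 24 with a mean log2 signal over 12, 23 were positive with a median of 0.28. In that range 54.2% of all tested probe sets were positive. Of the 12 weaker ones tested 8 were positive with a median of 0.05, against 48%. The groups were apart with BDL higher for 2 of the 24 (8.33%, against 6.83%) and for 0 of the 12 (against 6.24%). Sham replicate 1 was lowest for 21 of the 24, against 41.1% of all tested probe sets over 12.

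Other genes of protein synthesis were read from the same fit with 1 probe set per gene, and 0 passed the adjusted threshold. Of 8 tested elongation factors and associated proteins 6 were positive, with a median of 0.26 and 0 with the groups apart. Eef1a1, which brings aminoacyl transfer RNA to the ribosome, had 116368, 121917 and 102646 in BDL and 82149, 82348 and 106304 in sham, and differed by 0.34 (SE 0.28). Tpt1 and Eef2 differed by 0.23 and 0.17. These too were lowest in sham replicate 1. Of 39 initiation factors and regulators of initiation, among them Eif4ebp1, Eif4ebp2 and the Eif2ak kinases, 28 were positive with a median of 0.19. Of these 39, 8 were entirely higher and 0 entirely lower in BDL, where 6.32% and 4.32% of all tested probe sets were. Eif3j1, a loosely bound subunit of the eIF3 complex, had 7754, 9116 and 8655 in BDL and 3828, 4830 and 6279 in sham, a difference of 0.80 (SE 0.30). Eif1a differed by 0.77 (SE 0.29) with the groups apart, and Eif6, which keeps the subunits from joining, by 0.89 (SE 0.36) with overlap.

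Ribosome biogenesis factors, which process ribosomal RNA and assemble the subunits, had larger differences than the ribosomal proteins themselves, a contrast that was not tested. Of 56 tested, 42 were positive with a median of 0.36. In 19 of the 56 all BDL signals lay above all sham signals, and in 0 below, where 6.32% and 4.32% of all tested probe sets did so. At an unadjusted p under 0.05, 9 were higher and 1 lower, against 3.4% and 2.39% of all tested probe sets. Without sham replicate 1, 43 of 56 were positive. The number entirely higher in BDL was 14 after quantile normalization and 14 after median scaling. Over all tested probe sets that number was 603 on the deposited scale, 610 after quantile normalization and 491 after median scaling. Npm1, the nucleolar chaperone nucleophosmin, had 5744, 8000 and 8178 in BDL and 2913, 3859 and 4178 in sham, a difference of 1.00 (SE 0.30, limma adjusted p = 0.832). Nop58, a core protein of box C/D ribonucleoproteins, had 977, 1113 and 909 in BDL and 110, 400 and 428 in sham, and differed by 1.75 (SE 0.42, limma adjusted p = 0.667), and Tsr1, a factor of small subunit assembly, by 1.05 (SE 0.33). Of the cytosolic ribosomal proteins with other names, Rpsa differed by 0.20 (SE 0.30) with overlap and Fau by -0.46 (SE 0.31) with the groups apart.

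Mitochondrial ribosomal proteins, which serve the separate ribosome of that organelle, were near the array's median. Of 60 tested 35 were positive with a median of 0.04, and 1 had the groups apart, against 10.6% of all tested probe sets. Of 11 tested genes listed under S6 kinases and TOR signalling 6 were positive with a median of 0.02. The list also held Pdk1 (-0.49), whose symbol names a pyruvate dehydrogenase kinase and not the TOR pathway kinase Pdpk1. Rps6kb2, an S6 kinase, had 212, 206 and 70.3 in BDL and 591, 273 and 243 in sham, a difference of -0.85 (SE 0.39) with the groups apart. Of 11 tested regulators of ribosomal protein genes and of the p53 response to failed assembly 7 were positive with a median of 0.18. Myc, which drives transcription of ribosome biogenesis genes, had 395, 459 and 424 in BDL and 103, 149 and 108 in sham. All 3 sham values were under the floor and were set to the same number, so no difference, error or p is given for it. Mdm2 had 2364, 1932 and 2252 in BDL and 1910, 1272 and 1919 in sham, differing by 0.38 (SE 0.30) with the groups apart, and Gabpa, a subunit of GABP, differed by 0.38 (SE 0.32) with overlap.

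**Figure D4:**
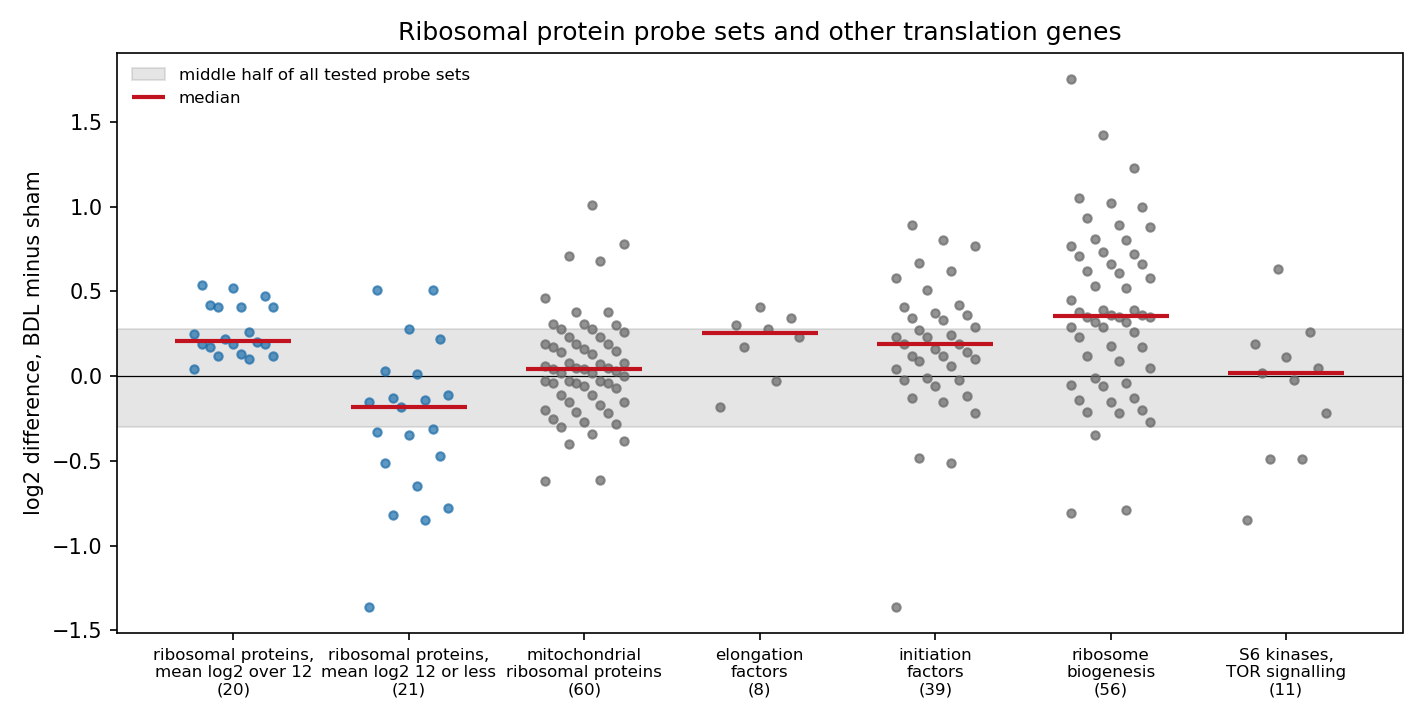
Each point is 1 tested probe set, plotted as the log2 difference of BDL minus sham by gene list, with the number tested in brackets; red bars are medians and the grey band spans the quartiles of all tested probe sets (-0.30 to 0.28). The strong ribosomal proteins lie in a narrow range above 0 (median 0.21), ribosome biogenesis factors spread upwards (median 0.36), and mitochondrial ribosomal proteins centre near 0 (median 0.04).

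Summed marker signals overlapped between the groups for every cell type but macrophages. Of the RNA integrity ratios, that of beta-actin was lower on every BDL array than on any sham array, and that of Gapdh overlapped. Macrophage markers had 10 of 13 tested genes positive with a median of 0.85, and their sums ranged from 17601 to 41201 in BDL and from 8067 to 15318 in sham. Without Cd14, the largest contributor to that sum, they ranged from 11509 to 17586 and from 6891 to 11815 and overlapped. Of their defining genes, Clec4f differed by 0.85 (SE 0.54) and Adgre1 by -0.19 (SE 0.52), both with overlapping groups. Lymphocyte markers had 3 of 9 positive (median -0.44), and their sums ranged from 4072 to 4557 in BDL and from 3353 to 10419 in sham. Neutrophil markers had 5 of 12 positive (median -0.11), and their sums ranged from 63519 to 111442 against 49994 to 70587, most of it Lcn2. Without Lcn2 they ranged from 6764 to 10436 against 5434 to 12651. Endothelial markers had 9 of 10 positive (median 0.47; sums of 8661 to 10938 against 5334 to 10061) and cholangiocyte markers 4 of 6 (median 0.31; sums of 2101 to 2694 against 1225 to 2964). Stellate and fibroblast markers had 6 of 11 positive (median 0.26; sums of 21247 to 30391 against 14307 to 26524) and hepatocyte markers 10 of 17 (median 0.01). Erythroid markers had 1 of 4 positive (median -0.30; sums of 18602 to 20708 against 9995 to 21821, and of 1962 to 4853 against 3397 to 4094 without Hba-a1) and exocrine pancreas markers 1 of 6 (median -0.46; sums of 4877 to 8185 against 5331 to 15675). The ratio of 3′ to 5′ signal for beta-actin averaged 1.32 ± 0.0983 over the BDL arrays and 1.53 ± 0.00817 over the sham arrays (SD, n = 3), and that for Gapdh 0.722 ± 0.0282 and 0.719 ± 0.0839. The part of these in the differences of the ribosomal proteins was not tested.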

How the data were processed

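Liver RNA of 6 mice was hybridized to U74Av2 arrays with 20 µg cRNA. The deposited values are 1 linear intensity per probe set and array, made by the authors with Affymetrix software (MicroArray Suite, GeneChip) per the series' design text. The sources used here do not give its background and scaling settings. Groups and replicate numbers come from the sample titles. Each array is 1 mouse.

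The intensities were kept as scaled, since their trimmed means were within 5% of each other. Values were floored at 152.7 (25th percentile), log2 was taken, and 9542 of 12422 probe sets above the floor on at least 3 of 6 arrays were fitted with limma 3.58.1 (lmFit, eBayes) in R 4.3.3, with Benjamini-Hochberg adjustment at 0.05. SE is limma's moderated standard error. The floor changes differences of low signals in either direction. The fit was also run on simulated arrays with known changes, the same spread for all probe sets and no odd array. Those changes were larger than the differences of the strong members, so the run says nothing on differences that small.

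Symbols came from the platform annotation, updated by gene ID for all 48 members. Members and lists were chosen with earlier results of these data known. Named in full were Rplp0, the members with the smallest p, the largest differences or the most extreme signals, members with several probe sets, paralogs, members with separate known roles, and up to 3 genes of each translation list with the smallest p; other names were chosen after their values were seen. Lists of markers and translation genes are described by counts and medians without a test. Rplp1, Rpl5 and Rps6 were listed only with several symbols and have no value here.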

Additional observations from a re-analysis of the deposited data

How the results depend on the processing

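Alternatives were normalization, floor, filter, variance model, array weights, 1 probe set per gene, omission of single arrays, and a block for the replicate number. No member passed the adjusted threshold under any of these 18 settings, and the lowest adjusted p of the 23 member probe sets followed was 0.269. Without a filter 3 of all probe sets passed, 1 of them (Myc) among the other translation genes; in these 3 every sham value was at the floor, so their spread there is 0 by construction. Of these 23, 19 kept their sign in all settings that tested them; the exceptions were Rpl41 (-0.04 after quantile normalization, -0.02 with array weights, -0.03 to 0.24 with 1 array left out), a Rps28 probe set (-0.10 after quantile normalization), Rpl13a (0.09 with array weights, -0.31 to 0.08 with 1 array left out) and Rpl38 (0.09 with array weights, -0.45 to 0.31 with 1 array left out). Quantile normalization moved the median of the large subunit from 0.19 to 0.08. The difference between groups in large less small subunit level was 0.06; it was -0.07 with the stricter filter, -0.07 with 1 probe set per gene, and 0.42 among weaker members alone. Restricted to weaker members after the values were seen, the medians were -0.18 for all, -0.13 for the large and -0.40 for the small subunit; restricted to strong ones the small subunit stood at 0.21. Adding the probe sets with several symbols moved none of these beyond 1 SD.

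Single arrays mattered for counts. Strong members with BDL entirely higher numbered 5 on all arrays, 9 without BDL replicate 1, 8 without BDL replicate 3 and 9 without sham replicate 3, where a smaller group separates more easily (603 of all probe sets on all arrays, 906 to 1207 with 1 left out), and 0 after median scaling. Members at an unadjusted p under 0.05 numbered 6 without sham replicate 3, 0 without BDL replicate 12, BDL replicate 3, sham replicate 1 or sham replicate 2, and 1 without BDL replicate 1. Over all tested probe sets that count also shifted, from 552 of 9542 on all arrays to between 308 and 1176 with 1 left out. The fit with the replicate number as a block, shared by 2 pairs only, rests on those 4 arrays, left 1 residual degree of freedom, gave 0 members past the adjusted threshold and a median of 0.10, and turned a Rps28 probe set to -0.01. Deviations of same-numbered mice correlated at 0.21 and 0.25 and those of mice 12 and 2, which share no number, at 0.29, while the other 6 combinations gave -0.21 to -0.04. With only 2 shared numbers the mice were not treated as paired, and no fit over 3 pairs was run. The cause of each shift was not tested.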
